A study of Bos taurus with 15 samples.

Results

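The cytosolic ribosomal protein genes are described here one by one and by subunit, in bovine embryos that were cultured with or without oviductal extracellular vesicles (oEVs). They were taken by symbol, as genes of the filtered count table named RPL or RPS followed by a number, with RPSA, RPLP0, RPLP1 and RPLP2 added and the RPS6K kinases left out. This gave 78 of 10832 genes, of which 32 encode proteins of the small (40S) subunit and 46 proteins of the large (60S) subunit. In the unfiltered table, 80 of 34773 genes met the rule, and the 2 that the authors' filter had removed, RPL3L and RPL10L, never held more than 2 counts in a library. RNA-seq had been performed on pools of 8 to 14 in vitro fertilised embryos of day 7, with 1 ng of total RNA per library. Control embryos (Co) had received no vesicles, FeEV embryos had received freshly isolated oEVs, and FoEV embryos oEVs that had been frozen. Each treatment had 5 libraries, and in both vesicle treatments the oEVs came from the oviductal fluid of slaughtered cows in the postovulatory stage. The labels do not say whether the pools of a treatment came from separate cultures, so that p-values measure the spread between pools, and what single embryos did cannot be seen.

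A ribosome consists of a small subunit, which decodes the messenger RNA, and a large subunit, which joins amino acids and releases the growing chain through an exit tunnel. Most of its proteins are present in a single copy per ribosome, and their messenger RNAs carry a pyrimidine tract at the 5′ end (TOP mRNAs) through which LARP1 and the kinase mTOR control their translation and stability. In cattle embryos the maternal store of ribosomes is followed by new synthesis once the embryonic genome becomes active.

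Between 2136713 and 4058887 reads were counted per library, and every FoEV library held more than every Co library. Ribosomal RNA genes took between 15.5% and 28.2% of the counts, with overlapping ranges in the 3 treatments. Trophectoderm markers (CDX2, GATA3, GATA2, KRT8, KRT18 and TFAP2C) were all measured and summed to 6352 to 8597 CPM (counts relative to the library size, scaled by TMM) in Co, 6937 to 10391 in FeEV and 8267 to 11182 in FoEV libraries. Markers of the inner cell mass and hypoblast, with 4 of 5 in the filtered table, summed to 632 to 769 CPM in Co, 601 to 727 in FeEV and 601 to 819.7 in FoEV libraries. Most of this sum was GATA6, with means of 437 CPM in Co, 404 in FeEV and 428 in FoEV. NANOG averaged 80.4 CPM in Co, 52.1 in FeEV and 45.0 in FoEV. Over all libraries, cumulus and granulosa markers summed to 23.1 to 44.9 CPM, oviduct epithelium markers to 12.1 to 25.0 CPM and sperm markers to 0.788 to 13.8 CPM. Markers outside the filtered table, among them all sperm markers, entered these sums relative to the total counts without TMM scaling. The library FoEV replicate 3 stood apart in the genes described here. Each of the 78 genes was above its own median over the 15 libraries in it, and 58 of the 78 had their highest value there (23 of the 40S and 35 of the 60S genes). FeEV replicate 2 held the lowest value of 30 genes and Co replicate 4 that of 23. In pooled embryos, fewer cells of a type and less RNA per cell cannot be told apart.

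**Figure D1:**
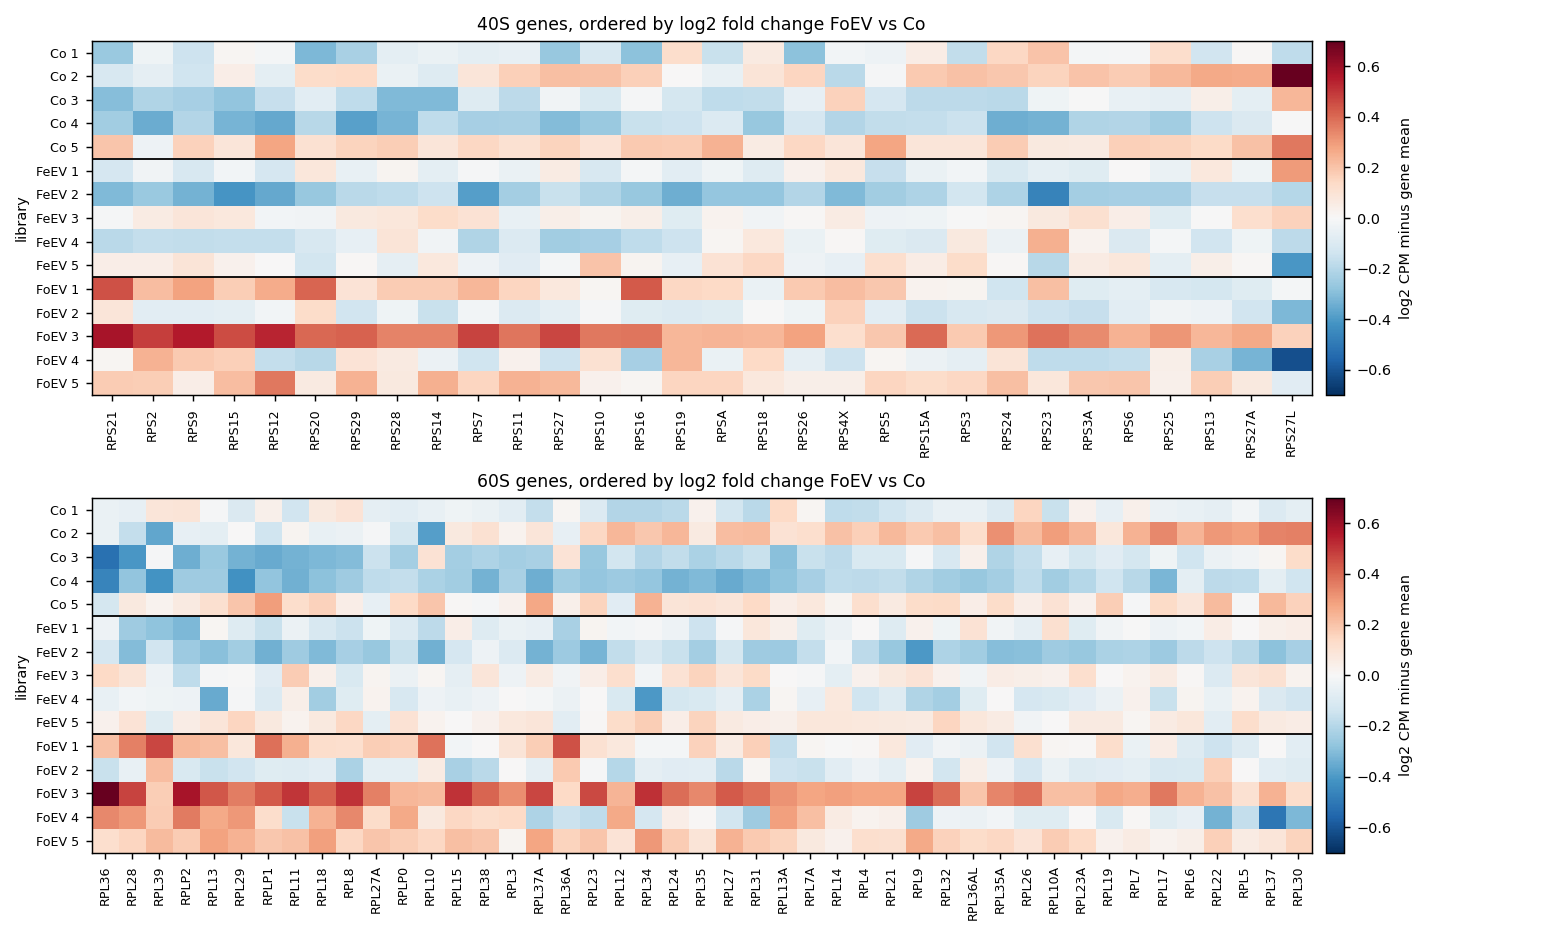
Level of each ribosomal protein gene in each library, as log2 CPM minus the mean of the gene over the 15 libraries (colour), for 30 genes of the 40S subunit (top) and 45 of the 60S subunit (bottom), ordered by the log2 fold change between FoEV and Co. FoEV replicate 3 is above the median of the gene in all 75 genes drawn, and RPS27L at the right end of the 40S genes has the lowest log2 fold change.

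All 78 genes were counted in every library, with at least 91 reads. Their mean level ran from 48.3 CPM (RPS27L) to 1015 CPM (RPS2), with a median of 384 CPM against 27.9 CPM over all genes tested. These values are not divided by transcript length, so that they rank read numbers and not molecules between genes. The 4 genes with the highest read numbers were RPS2 (mRNA entry channel), RPL4 (exit tunnel), RPLP0 (stalk base, 780.5 CPM) and RPL23A (exit tunnel, 765 CPM). RPL4 averaged 899 CPM. The 4 with the lowest were RPS27L, RPL36AL (126 CPM), RPL35A (148 CPM) and RPS28 (149 CPM). Between replicates of a treatment, the median within-treatment SD was 0.18 on the log2 scale. The SD was smallest in RPL3 (0.11) and largest in RPS27L (0.31).

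The comparison of FoEV with Co asks how frozen oEVs changed the embryonic transcriptome. Most ribosomal protein genes were slightly higher in FoEV than in Co embryos, by a median log2 fold change of 0.13 in the 40S and 0.17 in the 60S genes, against 0.01 over all genes tested. A positive log2 fold change was found in 70 of the 78 genes (background 52.3% of all genes tested). None of the 78 had an adjusted p under 0.05 (edgeR quasi-likelihood test with Benjamini-Hochberg adjustment over all genes), where the background was 0.00923%. At an unadjusted p under 0.05 (background 15.1% in both directions), 26 were higher (background 8.18%) and 1 was lower (background 6.88%). Of the 26, 10 belong to the 40S and 16 to the 60S subunit, and the single lower gene was RPS27L. The Wald test of DESeq2, a likelihood ratio test with robust dispersion, and the same quasi-likelihood test on the unfiltered table each placed 6 genes under an adjusted p of 0.05, among them RPS2, RPS21, RPL28, RPL36 and RPL39 in every case.

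These counts depended on single libraries. Without FoEV replicate 3, 10 genes were higher and 1 was lower at an unadjusted p under 0.05, which is 14.1% of the 78 against 14.7% of all genes tested in the same fit. In this fit 58 of the 78 fold changes were positive, with medians of 0.07 in the 40S and 0.08 in the 60S genes. Without Co replicate 4 these medians were 0.09 and 0.11. Without Co replicate 4 the count was 11 higher and 1 lower (15.4% against 11.5% of all genes), and without Co replicate 3 it was 13 higher and 1 lower (17.9% against 13.0%). Without FoEV replicate 2, RPS2, RPL28 and RPL36 passed the adjusted threshold, and the share of all genes that passed in this fit is not given here. Of the trophectoderm markers, 4 of 6 were also higher in FoEV at an unadjusted p under 0.05 (background 8.18%). The log2 fold change was 0.55 (SE 0.13, edgeR adjusted p = 0.0818) for KRT18 and 0.25 (SE 0.11, edgeR adjusted p = 0.289) for KRT8. The inner cell mass marker NANOG was lower in FoEV than in Co, with a log2 fold change of -0.84 (SE 0.26, edgeR adjusted p = 0.178). POU5F1 was at 0.21 (SE 0.11, edgeR adjusted p = 0.368), and SOX2 and GATA6 were both at -0.03. The part of cell composition in the ribosomal protein values was not tested. With all libraries thinned to the total count of the smallest, 23 genes were higher and 0 were lower at an unadjusted p under 0.05. In the same fit, 1538 of all 10832 genes tested were under this threshold.

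**Figure D2:**
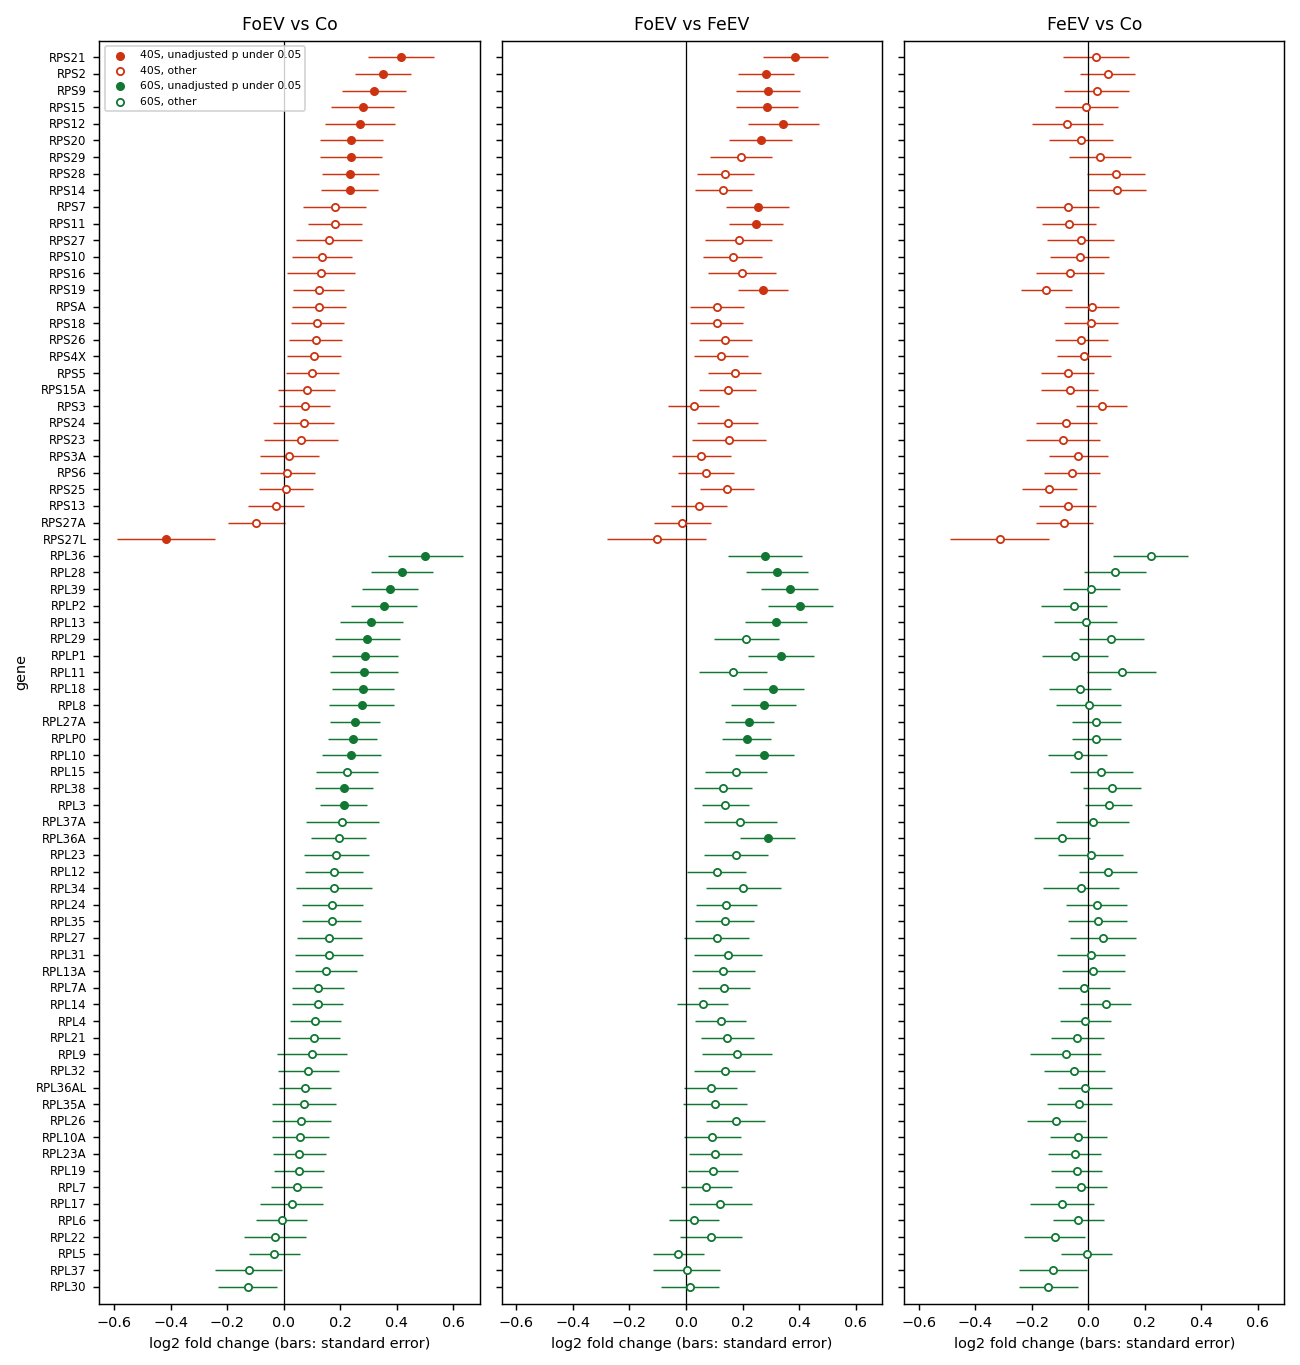
Log2 fold change of 75 of the 78 genes in the 3 comparisons (horizontal axis, bars are the standard error), with 40S genes in red and 60S genes in green. Filled points have an unadjusted p under 0.05, which holds for 25 of the genes drawn in FoEV vs Co, 21 in FoEV vs FeEV and 0 in FeEV vs Co, and no point has an adjusted p under 0.05.

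RPL39, a very small protein that lines the exit tunnel, was the only one of the 78 genes whose FoEV and Co libraries did not overlap (background 1.26% of all genes tested, higher in FoEV), and 0 were without overlap in the other direction (background 1.35%). Its 5 FoEV libraries held 674, 567, 551, 551 and 569 CPM. The Co libraries held 518, 379.5, 485, 365 and 496 CPM, and the FeEV libraries 402, 446, 475, 477 and 460.3 CPM. Every FoEV value was thus above every value of both other treatments. The log2 fold change between FoEV and Co was 0.38 (SE 0.10, edgeR adjusted p = 0.118), and it was 0.39 without FoEV replicate 3.

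RPL28, a 60S protein, had the smallest p. It was measured at 474, 358, 515, 457 and 412 CPM in FoEV and at 356, 331, 279, 306 and 388 CPM in Co libraries. Only FoEV replicate 2 lay inside the Co range. The log2 fold change was 0.42 (SE 0.11, edgeR adjusted p = 0.118). RPL36, another 60S protein, showed the highest fold change of the 78 genes. Its levels were 173, 134, 247, 189 and 162 CPM in FoEV, 146, 138, 165, 144 and 153 CPM in FeEV and 145, 145, 104, 109 and 137 CPM in Co libraries. FoEV replicate 3 was far above the other FoEV libraries and FoEV replicate 2 lay inside the Co range. The log2 fold change was 0.50 (SE 0.13, edgeR adjusted p = 0.121), and without FoEV replicate 3 it was 0.35.

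Among the 40S genes, RPS2, RPS21 and RPS9 were of the 10 with the smallest p. RPS2, which lies at the entry of the mRNA channel, held 1167, 953, 1405, 1188 and 1129 CPM in FoEV and 983, 959, 868, 788 and 979.6 CPM in Co libraries. Here 4 of the 5 FoEV libraries exceeded the Co range, and the log2 fold change was 0.35 (SE 0.10, edgeR adjusted p = 0.131).

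RPS21 held 217, 168, 237, 161 and 179.9 CPM in FoEV and 133, 147, 129, 134 and 181 CPM in Co libraries, and RPS9, which binds early to the small subunit RNA, held 298, 233, 360.1, 278 and 254 CPM and 222, 223, 209, 213 and 274 CPM. In both genes Co replicate 5 was high and overlapped the FoEV range. The log2 fold changes were 0.41 (SE 0.12, edgeR adjusted p = 0.133) for RPS21 and 0.32 (SE 0.11, edgeR adjusted p = 0.194) for RPS9. RPL27A is a protein of the 60S subunit. Its FoEV libraries held 222, 188, 251, 215 and 226 CPM against 189, 196, 178, 174 and 189 CPM in Co, with a log2 fold change of 0.25 (SE 0.09, edgeR adjusted p = 0.188). FoEV replicate 2 alone was inside the Co range.

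**Figure D3:**
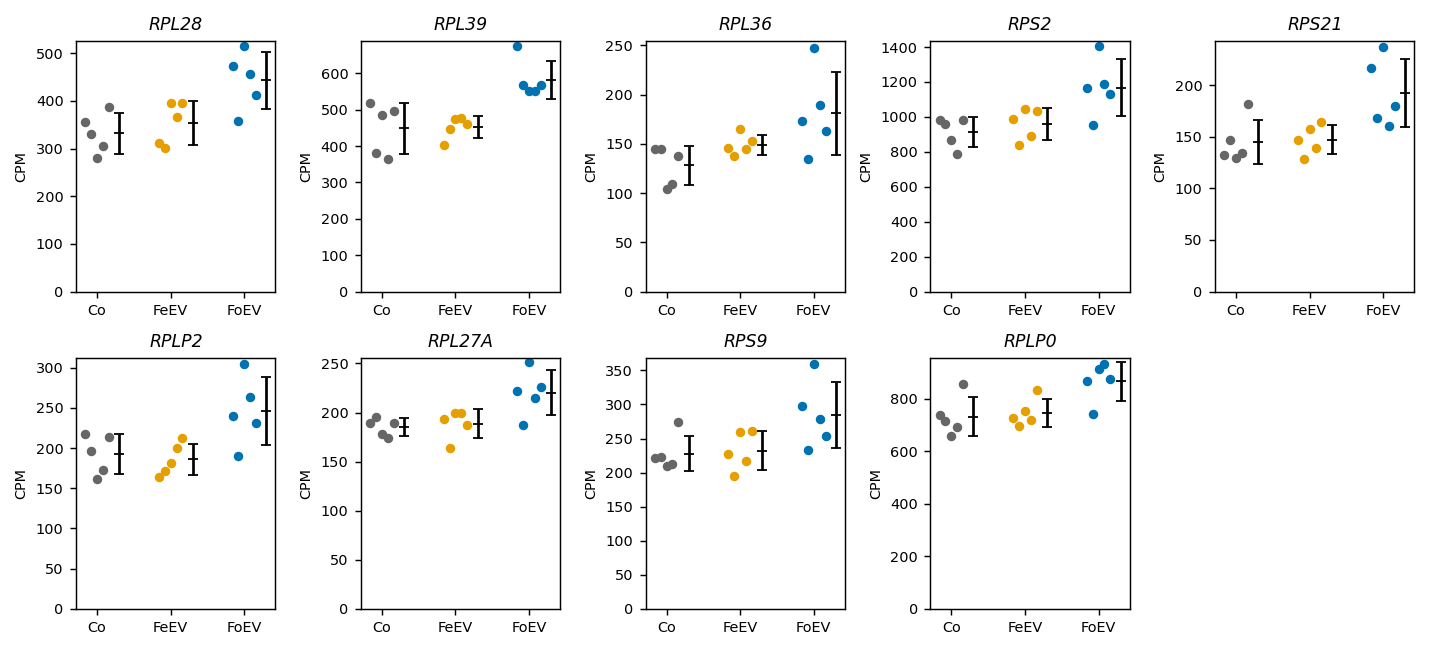
CPM of 9 of the 10 ribosomal protein genes with the smallest p in FoEV vs Co, in each of the 15 libraries (points, vertical axis from 0) with the mean and SD of each treatment (bars, n = 5). In RPL39 every FoEV library is above every Co and FeEV library, and in the other 8 genes the FoEV and Co points overlap.

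The acidic stalk of the 60S subunit, which recruits the translation factors that hydrolyse GTP, is built on RPLP0 and RPL12 and carries RPLP1 and RPLP2. All 4 genes had a positive log2 fold change between FoEV and Co (background 52.3%). Of the 4, 3 had an unadjusted p under 0.05 (background 8.18%, higher in FoEV), as had 26 of the 78. RPLP2 held 240.1, 190.2, 305, 263 and 232 CPM in FoEV, 165, 172, 181, 199 and 212 CPM in FeEV and 218, 197, 162, 172 and 214 CPM in Co libraries. Its log2 fold change was 0.35 (SE 0.12, edgeR adjusted p = 0.171). RPLP0 averaged 865 ± 74.8 CPM in FoEV and 731 ± 74.6 CPM in Co (SD, n = 5), and RPLP1 662 ± 93.1 and 542 ± 101 CPM. The log2 fold changes were 0.24 (SE 0.09, edgeR adjusted p = 0.195) and 0.29 (SE 0.12, edgeR adjusted p = 0.241), whereas RPL12 did not pass at 0.18 (SE 0.10, edgeR adjusted p = 0.420).

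Among all 78 genes, 27 had an unadjusted p under 0.05 (background 15.1%). Whether single regions of the ribosome differ from the rest was not tested. Of the proteins near the peptidyl transferase centre, where peptide bonds form, all 3 had an unadjusted p under 0.05. These were RPL3 with 0.21 (SE 0.08, edgeR adjusted p = 0.230), RPL8 with 0.28 (SE 0.11, edgeR adjusted p = 0.257) and RPL10 with 0.24 (SE 0.10, edgeR adjusted p = 0.282) as log2 fold changes between FoEV and Co. RPL8 ranged from 393 to 650.0 CPM in FoEV and from 372 to 491 CPM in Co, so that the ranges overlapped. The 8 proteins of the exit tunnel all had positive log2 fold changes, with a median of 0.09, and only RPL39 had an unadjusted p under 0.05. The other 7 ran from 0.03 in RPL17 over 0.05 in RPL19, 0.06 in RPL23A, 0.06 in RPL26, 0.11 in RPL4 and 0.16 in RPL31 to 0.17 in RPL35. Without FoEV replicate 3 the values of RPL17, RPL19 and RPL26 were below 0, and that of RPL8 was 0.18.

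RPL5 and RPL11 carry the 5S RNA into the large subunit and hold back MDM2, the inhibitor of p53, when ribosome assembly fails. RPL11 had a log2 fold change of 0.28 (SE 0.12, edgeR adjusted p = 0.268) between FoEV and Co, and RPL5 one of -0.03 (SE 0.09, edgeR adjusted p = 0.887). Without FoEV replicate 3 the value of RPL11 was 0.18. RPL11 ranged from 223 to 352 CPM in FoEV and from 197 to 270.4 CPM in Co libraries, and RPL5 from 529.5 to 639 and from 525 to 724 CPM. Whether the 2 fold changes differ from each other was not tested. RPL10A of the L1 stalk, through which spent tRNA leaves, had a log2 fold change of 0.06 (SE 0.10).

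Of the 40S proteins around the mRNA channel, RPS2 and RPS28 had an unadjusted p under 0.05, at 0.35 and 0.24 (SE 0.10, edgeR adjusted p = 0.272). RPS3, which forms the entry site together with RPS2, did not pass at 0.07 (SE 0.09, edgeR adjusted p = 0.731), and neither did RPS26 of the exit side at 0.11 (SE 0.09, edgeR adjusted p = 0.588). In the decoding region RPS15 had a log2 fold change of 0.28 (SE 0.11, edgeR adjusted p = 0.234) and RPS23 one of 0.06 (SE 0.13, edgeR adjusted p = 0.850). In the beak of the small subunit RPS12 had 0.27 (SE 0.12, edgeR adjusted p = 0.312), RPS10 0.14 (SE 0.10, edgeR adjusted p = 0.557) and RPS27A, which is made as a fusion with ubiquitin, -0.10 (SE 0.10, edgeR adjusted p = 0.677). Without FoEV replicate 3 the value of RPS12 was 0.17. RPS6, the substrate of the S6 kinases, was almost level, with 505 ± 64.8 CPM in FoEV and 501 ± 55.1 CPM in Co (SD, n = 5).

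RPL18, RPL29, RPS14, RPS20 and RPS29 were also higher at an unadjusted p under 0.05, with log2 fold changes between those of RPL38 (0.21) and RPL13 (0.31), which passed too. Without FoEV replicate 3, RPL38 was at 0.12 and RPS29 at 0.16. The genes with a positive value that did not pass ran from 0.01 in RPS25 to 0.22 in RPL15.

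In 8 of the 78 genes the log2 fold change between FoEV and Co was negative. Of these RPS13, RPS27A, RPL5, RPL6, RPL22, RPL30 and RPL37 lay between -0.13 and -0.0070 with unadjusted p above 0.05. RPS27L, the p53-inducible relative of RPS27, was the exception. It held 41.6, 79.3, 55.1, 47.0 and 60.7 CPM in Co, 57.8, 40.8, 52.5, 41.4 and 35.5 CPM in FeEV and 46.5, 37.8, 52.6, 30.7 and 44.4 CPM in FoEV libraries. Co replicate 2 was highest and FoEV replicate 4 lowest, and the treatments overlapped. The log2 fold change was -0.42 (SE 0.17, edgeR adjusted p = 0.259), and leaving out Co replicate 2 brought it to -0.26. Its unadjusted p was no longer under 0.05 without Co replicate 2 or 5, or without FoEV replicate 2 or 4. RPS27 itself held 366 ± 59.2 CPM in Co and 409 ± 71.8 CPM in FoEV (SD, n = 5), with a log2 fold change of 0.16 (SE 0.12, edgeR adjusted p = 0.534).

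Of the related genes RPL36A and RPL36AL, RPL22 and RPL22L1, RPL26 and RPL26L1, and RPL7 and RPL7L1, 0 had an unadjusted p under 0.05 (edgeR, background 15.1%) in this comparison. The log2 fold changes of RPL36A and RPL36AL were 0.19 (SE 0.10) and 0.08 (SE 0.09) between FoEV and Co. RPL22 was at -0.03 (SE 0.11) and its relative RPL22L1 at -0.07 (SE 0.14), RPL26 at 0.06 (SE 0.10) and RPL26L1 at -0.01 (SE 0.16), and RPL7 at 0.05 (SE 0.09) and RPL7L1 at 0.21 (SE 0.11). RPL22L1, RPL26L1, RPL7L1 and RPS4Y1 end in a letter and a number and are not among the 78. Many ribosomal protein genes have processed pseudogenes. Where sequences are alike, reads of these or of relatives may be shared between loci in counting, which makes single values uncertain. Sequences were not compared here.

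The comparison of FoEV with FeEV asks whether frozen and fresh oEVs act differently. Most of the genes were slightly higher in FoEV than in FeEV embryos, in a comparison that shares its FoEV libraries with the one before. The median log2 fold change was 0.16 in the 40S and 0.14 in the 60S genes, against 0.01 over all genes tested, and 75 of the 78 values were positive (background 51.8%). No gene had an adjusted p under 0.05 by edgeR, as was the case over all genes tested (background 0%). At an unadjusted p under 0.05 (background 8.52% in both directions), 23 genes were higher (background 4.83%) and 0 were lower (background 3.69%), while DESeq2 gave 22 and the likelihood ratio test with robust dispersion 20. The 23 were 10 genes of the 40S and 13 of the 60S subunit. Without FoEV replicate 3, and likewise without FeEV replicate 2, 13 genes were under this threshold in each case (16.7% of the 78), against 9.13% of all genes tested without FoEV replicate 3 and 5.87% without FeEV replicate 2. The medians without FoEV replicate 3 were 0.09 in the 40S and 0.07 in the 60S genes.

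RPL39 and RPL10 were the 2 genes whose FoEV and FeEV libraries did not overlap (background 0.757% of all genes tested, higher in FoEV). RPL10, which completes the 60S subunit late in its assembly, held 828, 661, 741, 667 and 701 CPM in FoEV and 560.0, 502, 642, 620.3 and 646 CPM in FeEV libraries. Its lowest FoEV value was just above its highest FeEV value. The log2 fold change was 0.28 (SE 0.10, edgeR adjusted p = 0.501), and that of RPL39 was 0.37 (SE 0.10, edgeR adjusted p = 0.448). Of the 6 genes with the smallest p, RPL39 came first, and among the others were RPLP2 at 0.40 (SE 0.12, edgeR adjusted p = 0.45), RPS21 at 0.39 (SE 0.12, edgeR adjusted p = 0.45), RPS19 at 0.27 (SE 0.09, edgeR adjusted p = 0.486) and RPL28 at 0.32 (SE 0.11, edgeR adjusted p = 0.496). RPS19, which matures the small subunit RNA and is the gene most often hit in Diamond-Blackfan anaemia, held 324, 274, 344, 344 and 324 CPM in FoEV and 278, 231, 277, 265 and 281 CPM in FeEV libraries. FoEV replicate 2 was low and lay inside the FeEV range. The 3 genes with a negative value, RPL5, RPS27A and RPS27L, had log2 fold changes of -0.03 (SE 0.09), -0.01 (SE 0.10) and -0.10 (SE 0.17).

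The comparison of FeEV with Co asks what fresh oEVs changed. The values lay near those of Co, with a median log2 fold change of -0.03 in the 40S and -0.01 in the 60S genes. A positive value was found in 31 of the 78 (background 51.0%). No gene had an adjusted p under 0.05 (background 0%) and 0 had an unadjusted p under 0.05 by edgeR (background 4.15%, with 1.83% higher and 2.32% lower in FeEV), by DESeq2 or by the likelihood ratio test with robust dispersion. In 0 genes did the libraries of FeEV and Co not overlap (background 0.535% higher and 0.415% lower in FeEV). The fold changes ran from -0.31 in RPS27L to 0.22 in RPL36. The 6 genes with the smallest p were RPS27L at -0.31 (SE 0.17), RPL36 at 0.22 (SE 0.13), RPS19 at -0.15 (SE 0.09), RPS25 at -0.14 (SE 0.10), RPL30 at -0.14 (SE 0.10) and RPL22 at -0.12 (SE 0.11), and all had an edgeR adjusted p of 1.00. The direction of the whole group was not stable, since positive values numbered 17 without Co replicate 4, 20 without FeEV replicate 5, 48 without Co replicate 2, 49 without Co replicate 5 and 52 without FeEV replicate 2. Changes of the size of the standard errors, which were near 0.1 for most genes, could not be told from the spread between libraries.

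For a view by subunit, the log2 CPM of the genes was averaged per library. The Co libraries had a 40S average of 8.50 ± 0.15 and a 60S average of 8.45 ± 0.16 (SD, n = 5). FeEV libraries had 8.47 ± 0.11 and 8.45 ± 0.11, and FoEV libraries 8.64 ± 0.16 and 8.61 ± 0.15. The 40S average of single libraries ran from 8.32 to 8.68 in Co and from 8.47 to 8.88 in FoEV, so that the ranges overlapped. Apart from FoEV replicate 3, FoEV libraries did not exceed 8.67. FoEV replicate 3 was the highest library in both subunits, and FeEV replicate 2 and Co replicate 4 were the lowest 2 in both. When the 60S average was subtracted from the 40S average, Co libraries were at 0.06 ± 0.02, FeEV libraries at 0.03 ± 0.02 and FoEV libraries at 0.03 ± 0.03. Both averages come from the same library, so that the difference has a spread of its own. Its mean changed by -0.03 from Co to FoEV and by -0.03 from Co to FeEV, about the size of its SD within a treatment. The ranges of the difference, 0.03 to 0.08 in Co and -0.01 to 0.06 in FoEV, overlapped. As a share of all counts, Co libraries held 1.31% ± 0.164 for the 40S and 1.77% ± 0.234 for the 60S genes. FeEV libraries held 1.32% ± 0.148 and 1.80% ± 0.192, and FoEV libraries 1.45% ± 0.190 and 1.97% ± 0.230. No test was made on averages or shares, since the genes were chosen with earlier results known.

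**Figure D4:**
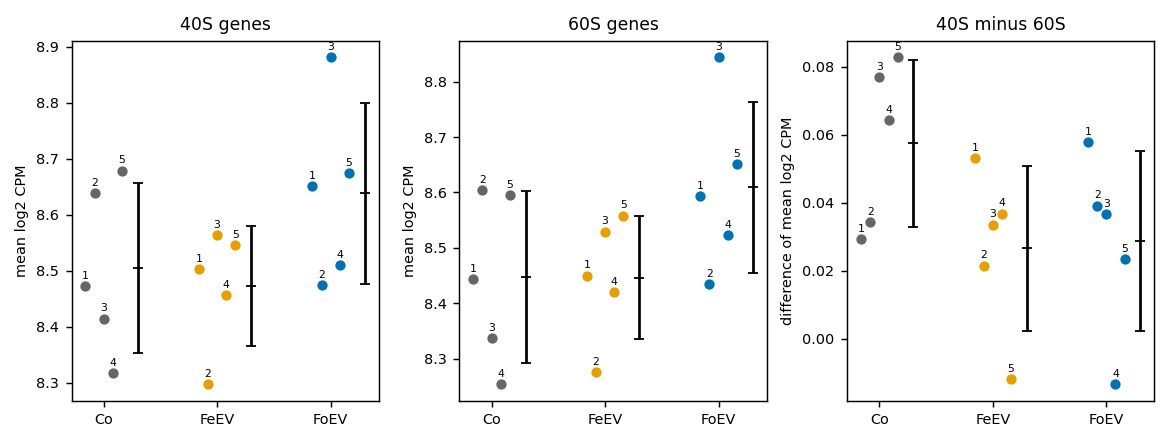
Mean log2 CPM of the 32 genes of the 40S subunit (left) and the 46 genes of the 60S subunit (middle) and the difference of both (right), per library with the replicate number, with mean and SD of each treatment (bars, n = 5). FoEV replicate 3 is the highest library in both subunits at 8.88 and 8.84, and the difference between the subunits lies between -0.01 and 0.08 in all libraries.

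The genes of both subunits varied together across libraries within a treatment. Taken over 15 libraries as deviations from the treatment means, the median correlation of a pair of genes was 0.69, and it was 0.70 within the 40S, 0.70 within the 60S and 0.69 between the subunits. All genes of a library share its depth and scaling factor, so that these values are a description. RPL39 (0.05), RPS4X (0.24), RPL10 (0.25) and RPL36A (0.26) were among the 5 genes with the lowest median correlation with the others. These 4 genes are encoded on the X chromosome in mammals, and they are the only X-linked genes among the 78. This grouping was chosen after the values were seen. The 4 correlated with each other with a median of 0.75 (lowest 0.56, highest 0.77), and with the other 74 genes with a median of 0.19. The other 74 genes had a median of 0.72 among themselves.

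The libraries were ordered differently by the X-linked genes. Averaged as deviations from the mean of each gene, the 4 X-linked genes were at 0.38 in FoEV replicate 1 and at 0.16 in FoEV replicate 3, whereas the other 74 were at 0.09 and 0.35 in these libraries. In Co replicate 2 the X-linked genes were at -0.25 and the others at 0.12, and in Co replicate 3 at 0.09 and -0.16. RPS4X, a protein of the small subunit, held 771, 742, 719.7, 600.0 and 683 CPM in FoEV and 656, 583, 742, 577 and 705 CPM in Co libraries. The treatments overlapped in it, with a log2 fold change of 0.11 (SE 0.10, edgeR adjusted p = 0.615), and they overlapped in RPL36A too, at 0.19 (SE 0.10, edgeR adjusted p = 0.354). XIST, the noncoding RNA transcribed from the inactive X chromosome of female cells, held 134, 85.4, 212, 194 and 155 CPM in Co libraries, 216, 297, 211, 222 and 188 CPM in FeEV libraries and 271, 421, 82.9, 284 and 192 CPM in FoEV libraries. It was lowest in FoEV replicate 3 and Co replicate 2 and highest in FoEV replicate 2. The labels give no sex of the pooled embryos, and the part of XIST or of embryo sex in these values was not tested.

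**Figure D5:**
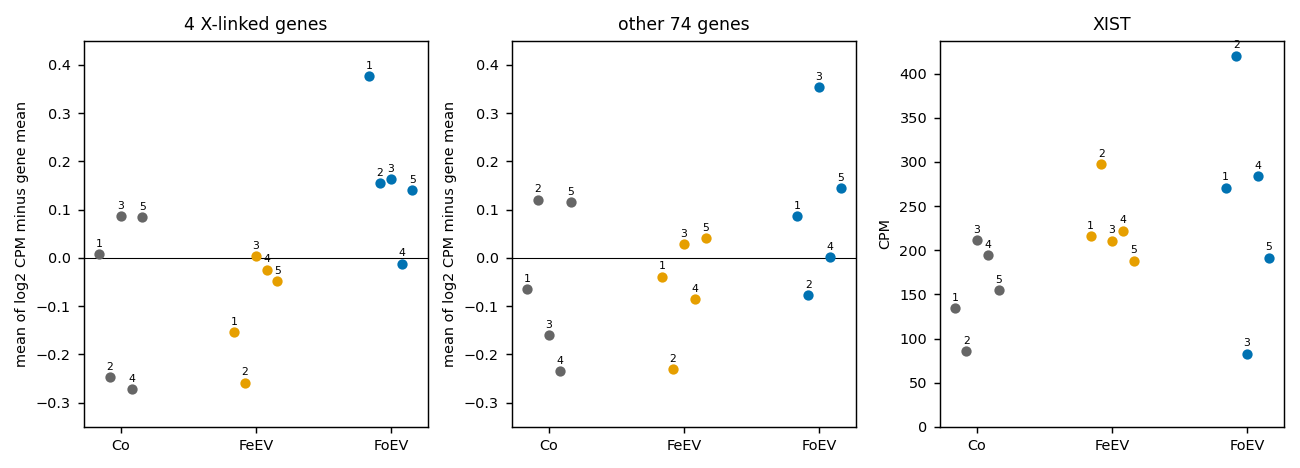
Mean deviation of the 4 X-linked ribosomal protein genes (left) and of the other 74 (middle) from the mean of each gene over 15 libraries, on the log2 scale, and CPM of XIST (right), per library with the replicate number. FoEV replicate 3 leads the other 74 genes at 0.35 and FoEV replicate 1 the X-linked genes at 0.38, and XIST is lowest in FoEV replicate 3.

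The ribosome also contains proteins whose genes carry other names, and the same TOP control reaches further genes, so these were read from lists beside the 78. FAU, which encodes RPS30, had a log2 fold change of 0.16 (SE 0.09, edgeR adjusted p = 0.432) between FoEV and Co and the scaffold protein RACK1 0.08 (SE 0.09, edgeR adjusted p = 0.704). Of 15 other genes with TOP mRNAs, mostly translation factors, 6 had a positive and 9 a negative value (background 52.3% positive), with a median of -0.01. An unadjusted p under 0.05 was found in 3 of the 15 (edgeR, background 15.1%). The elongation factor subunits EEF1G and EEF1D were higher at an unadjusted p under 0.05, by 0.28 (SE 0.11, edgeR adjusted p = 0.219) and 0.23 (SE 0.11, edgeR adjusted p = 0.313), and the histone chaperone NAP1L1 was lower, at -0.16 (SE 0.08, edgeR adjusted p = 0.325). EEF1A1, the factor that delivers aminoacyl-tRNA, was at -0.10 (SE 0.09, edgeR adjusted p = 0.649) and EEF2, which moves the ribosome along, at -0.10 (SE 0.10, edgeR adjusted p = 0.642). Of 12 regulators of ribosomal protein synthesis, 0 had an unadjusted p under 0.05 (edgeR) in any of the 3 comparisons. LARP1, MTOR, MYC and the S6 kinase genes were among them. The background was 15.1% in FoEV vs Co, 8.52% in FoEV vs FeEV and 4.15% in FeEV vs Co. LARP1 had a log2 fold change of 0.06 (SE 0.09) and MTOR one of 0.08 (SE 0.10) between FoEV and Co.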

How the data were processed

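The 15 libraries, each made from total RNA of a pool of bovine embryos, were assigned to their treatment by title (5 each). The deposited tables hold read counts per gene without normalization. According to the methods, the authors mapped single-end reads to ARS-UCD1.2 in Galaxy with annotation from NCBI and counted them with QuasR Qcount, whereas the submitters' processing notes list Trim Galore 0.4.3.1, HISAT2 2.1.0 and featureCounts 1.6.3. The library kit selects a strand, and whether the counting used it is not given in the sources used here. The labels give 7 days of culture and the methods 1 day more. The authors' filter kept 10832 genes, whose counts were the same in both tables.

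Symbols were joined by gene identifier from a RefSeq table of a later assembly (ARS-UCD2.0), which matched 10709 of the 10832 genes. The table holds no transcript lengths and no sequences, so that none are given. Counts were scaled by TMM and fitted with edgeR 4.0.16 in R 4.3.3 over all 15 libraries with treatment as the only factor, and each comparison was tested with the quasi-likelihood test (glmQLFit with robust=TRUE, glmQLFTest), with Benjamini-Hochberg adjustment over all genes. Called p thresholds were 0.05. CPM values are TMM-scaled, except for marker genes outside the filtered table, and log2 CPM used a prior count of 2. Alternatives were the size factors and the Wald test of DESeq2 1.42.0, a robust dispersion with likelihood ratio test, the unfiltered table, the filter rule of the methods, removal of rRNA genes, counts thinned to the smallest library, blocks by replicate number, and leaving out each library. Data were simulated for FoEV vs Co with 10832 genes, 200 of them changed by a log2 fold change of 1. The quasi-likelihood test recovered 76.0% with 5.59% false calls, the likelihood ratio test 83.5% with 22.0% and DESeq2 78.5% with 11.3%. Genes were drawn independently, and the 78 genes had log2 fold changes of at most 0.50 in this comparison. Recovery of changes as small as theirs was not measured. Summaries used Python 3.11.15, pandas 2.3.3, numpy 2.4.6 and matplotlib 3.10.9.

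Genes named with values were the 10 with the smallest p in FoEV vs Co and the 6 smallest in each other comparison, those whose libraries did not overlap, the 4 highest and 4 lowest levels, every gene of a functional role and paralog pairs. The members and lists were chosen with earlier results of these data known. The X-linked grouping, RPS4X and the further genes under an unadjusted p of 0.05 were named after their values were seen. A few genes enter every count but are not reported here singly or drawn in the plots of single genes. Library totals from 2136713 to 4058887 counts set the precision.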

Additional observations from a re-analysis of the deposited data

Results flagged for a closer look

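Within treatments, 6 of 144 groups of 5 libraries held a value whose gap to the nearest other library took up most of the range of the group by Dixon's test, and chance alone marks about 1 in 20 groups. RPL39 was at 674 CPM in FoEV replicate 1, against 551 to 569 CPM in the other FoEV libraries. RPS10 was at 423 CPM in FoEV replicate 3 (324 to 352 CPM in the others), and RPS19 at 274 CPM in FoEV replicate 2 (324 to 344 CPM in the others). In FeEV replicate 2, RPL35A was at 119 CPM (144 to 153 CPM in the others) and RPL7 at 484 CPM (562 to 575 CPM in the others). RPS9 was at 274 CPM in Co replicate 5, where the other Co libraries held 209 to 223 CPM.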

How the results depend on the processing

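In FoEV vs Co, genes at an adjusted p under 0.05 numbered 6 with the Wald test of DESeq2 and 6 with the robust dispersion and likelihood ratio test. They numbered 6 with the unfiltered table and 0 to 3 with 1 library left out. The shares of all genes under this threshold in these fits are not given. Genes at an unadjusted p under 0.05 numbered 11 to 30 with 1 library left out in FoEV vs Co, 13 to 29 in FoEV vs FeEV and 0 to 1 in FeEV vs Co, where the unfiltered table gave 2 and taking in the 4 more symbols, chosen after seeing the data, gave 1. With 1 library left out, the share of all genes under this threshold was 11.5% to 18.1% in FoEV vs Co. It was 5.87% to 11.4% in FoEV vs FeEV and 2.90% to 5.63% in FeEV vs Co. Positive fold changes numbered 17 to 52 in FeEV vs Co with 1 library left out. The log2 fold change between FoEV and Co was recomputed with 1 library left out for genes with a listed role, and turned sign in RPL17 (-0.068 to 0.12), RPL19 (-0.012 to 0.10), RPL26 (-0.028 to 0.12), RPL5 (-0.078 to 0.042), RPS23 (-0.030 to 0.12) and RPS6 (-0.053 to 0.058), while over all 78 genes positive values fell from 70 to 58 without FoEV replicate 3. The cause was not tested. Depth was lowest in FeEV replicate 4 at 2136713 counts. Thinning to it gave 23 of the 78 genes, and 1538 of all 10832, at an unadjusted p under 0.05 in FoEV vs Co.

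Whether the replicate numbers of the titles pair the libraries could not be settled. Of 15 same-numbered pairs, 7 had a correlation of their deviations over 0.1, and the values ran from -0.29 to 0.44. Their mean was 0.12, against -0.03 for pairs with other numbers. According to the paper, fresh and frozen oEVs were parts of the same oviduct material. With blocks by title number, 26 genes were higher and 1 was lower at an unadjusted p under 0.05 in FoEV vs Co, where 1911 of all 10832 genes tested were under this threshold. With the block by the numbers of the descriptions (3 of 10 pairs over 0.1) they were 20 and 1, FeEV vs Co gave 2 genes, and RPL5 had a log2 fold change of 0.0046 in FoEV vs Co. In this fit 1586 of all 10832 genes tested were under the threshold in FoEV vs Co and 555 in FeEV vs Co.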

Other observations

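Introns of ribosomal protein genes carry small nucleolar RNAs (snoRNAs), which are released by splicing of the host transcript and guide the chemical modification of ribosomal RNA. Within the span of 27 of the 78 genes, RefSeq places 57 snoRNA genes, and 18 of these were in the filtered table. All 18 had a positive log2 fold change between FoEV and Co (background 52.3%), with a median of 1.17, and 7 had an unadjusted p under 0.05 (background 8.18% of all genes tested, higher in FoEV). Other snoRNA genes were not read here, so these values are not shown to be particular to snoRNAs inside ribosomal protein genes. The paper also reports a snoRNA hosted by another gene as higher in FoEV embryos. None had an adjusted p under 0.05. The 2 inside RPS3, both with an unadjusted p under 0.05, were at 1.62 and 0.96, while RPS3 itself was at 0.07 (SE 0.09, edgeR adjusted p = 0.731). The one inside RPL5 was at 1.26, where RPL5 was at -0.03 (SE 0.09, edgeR adjusted p = 0.887). Between FoEV and FeEV all 18 were positive too (background 51.8%), in a comparison that shares the FoEV libraries, and between FeEV and Co 9 were positive and 9 negative (background 51.0% positive). Host genes did not stand out among the 78, with a median log2 fold change of 0.15 between FoEV and Co in the 27 genes that hold a snoRNA gene and 0.16 in the 51 that hold none. A snoRNA and the intron around it overlap, so that reads of unspliced host RNA and of the snoRNA cannot be told apart in these counts.

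RPS4Y1, a relative of RPS4X outside the 78, was the only one of 4 such relatives with an unadjusted p under 0.05 in a comparison. It held 142 ± 6.70 CPM in Co, 125 ± 15.4 CPM in FeEV and 146 ± 9.14 CPM in FoEV libraries (SD, n = 5). Its log2 fold change was -0.19 (SE 0.09, edgeR adjusted p = 1.00) between FeEV and Co and 0.23 (SE 0.09, edgeR adjusted p = 0.502) between FoEV and FeEV.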
